A study of Mus musculus with 8 samples.

Results

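The loci described here are the microRNA and small nucleolar RNA (snoRNA) genes that carried measurable signal when RNA from mouse Lewis lung carcinomas was sequenced. They were chosen by symbol (Mir or Mirlet, Snora and Snord, each followed by a digit) and by an RPKM of 1 or more in at least 2 of the 8 libraries, with Mir675 left out. RPKM, as the authors computed it, divides the reads of a transcript by its length in kilobases and by the depth of the library in M reads. Of 1191 such symbols in the deposited table, 295 met the rule: 222 microRNA symbols, 27 H/ACA snoRNAs (Snora) and 46 C/D snoRNAs (Snord). Among the microRNA symbols are 1 let-7 locus and 2 spliced host transcripts (Mir22hg and Mir17hg). A further 768 symbols were listed at 0 in every library, and 118 reached 1 RPKM in exactly 1 library. The values that chose the loci are the same values described below, so the number of loci found is not a result. Across all symbols 13311 met the same minimum and were tested together.

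There were 4 groups of 2 libraries. TAM are tumor-associated macrophages, labelled as M2 and sorted as F4/80-positive cells that had taken up collagen and carried neither dTomato nor GFP. Fibroblast are the GFP-positive cells, LLC the dTomato-positive Lewis lung carcinoma cells, and Total tumor is whole tumor tissue. In every group the tumors came from LLC cells with a dTomato plasmid, sorted for dTomato and kept under G418, that were injected under the skin of both flanks of Col1a1-GFP mice. Fluorescently labelled (Alexa) collagen was injected into the tumors 24 h before the cells were sorted. In the Fibroblast group the reporter is driven by a collagen gene promoter, and the LLC cells are an established mouse lung carcinoma line. The age of the mice is not given in the sources used here. Nor is it stated that paired libraries of a group had separate animals behind them, so each p-value reflects library-to-library spread, which may be technical.

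A microRNA is cut from a hairpin in a longer transcript. The enzyme Drosha makes the first cut in the nucleus and Dicer the second in the cytoplasm, and the mature strand then guides Argonaute proteins to messenger RNAs through its seed, bases 2 to 8. A mirtron skips Drosha because its hairpin is a spliced-out intron. C/D snoRNAs guide methylation and H/ACA snoRNAs guide pseudouridylation of ribosomal RNA, and in mice most are trimmed from introns of genes for ribosomal proteins, translation factors or noncoding host transcripts. None of these mature RNAs carries a long poly(A) tail, whereas the libraries here were primed with oligo-dT and read at 50 bp. The values therefore count reads placed on the annotated loci, and mature small RNAs were not measured as such.

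The mature sequences of microRNAs from loci that were high or low in a population are printed first. They come from RefSeq on GRCm38.p6 and run 5′ to 3′ with the seed in capitals. The loci of miR-6961, miR-223, miR-6978 and miR-218 met the minimum through 1 group alone. Their difference is thus a description of the choice, and no test of them is given. The first set belongs to loci that were high in TAM.
miR-7676-3p: uCCGGUGCucacucugcccaca
miR-7115-3p: aCUUGGUCcccugcccccacag
miR-7050-3p: uCUCAGCCuuuaucuccccag
miR-7091-3p: aGUGGCUUcugucgucucuag
miR-6961-3p: uCCUCUUUcuuccuggcucuag
miR-223-3p: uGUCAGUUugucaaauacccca
miR-142b: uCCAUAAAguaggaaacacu
The next set belongs to loci that were high in Fibroblast.
miR-1906: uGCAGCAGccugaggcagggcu
miR-6978-3p: aCGGCUUCacucucacccugcag
miR-7025-3p: cAGCACAAcuccagcucaccag
miR-218-5p: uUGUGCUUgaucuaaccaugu
The last pair belongs to loci that were low in TAM.
miR-130c: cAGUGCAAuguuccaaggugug
miR-546: aUGGUGGCacggaguc
Of the microRNA loci, 198 matched at least 1 mature sequence, which gave 330 mature arms with 315 distinct seeds. The seed shared by the most loci was GGGCUGA, in miR-6911-5p, miR-7028-5p and miR-7079-5p, 3 microRNAs from 3 different loci, shown for that reason and not for their values.

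Where a hairpin lies within its host transcript bears on how its reads can be read, so 5 hairpins are printed whole. In the first 4 the capitals mark the bases at a splice site, GU at an intron's start and AG at its end.
Mir7091: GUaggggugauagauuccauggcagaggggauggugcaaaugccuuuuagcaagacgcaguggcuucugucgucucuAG
Mir7115: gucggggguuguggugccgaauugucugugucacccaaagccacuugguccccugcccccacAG
Mir7050: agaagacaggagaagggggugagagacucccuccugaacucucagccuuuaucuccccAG
Mir6978: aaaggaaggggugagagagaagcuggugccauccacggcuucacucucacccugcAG
In the fifth, the capitals mark 30 coding bases of Pdgfra, which are also part of the annotated hairpin.
Mir7025: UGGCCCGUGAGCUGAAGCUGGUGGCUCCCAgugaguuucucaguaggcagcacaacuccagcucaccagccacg
The Mir7091 hairpin is a whole intron of Dnase1l1, and the other 3 end at the last base of an intron of Arrb2, Fxyd5 and C3.

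These loci are short, with a median length of 77.5 nt and a range of 43 to 221 nt, and few reads stand behind their values. Low RPKM values multiplied by transcript length fell on whole multiples of 1 read, which gave the depth of each library. It was 8.58 and 4.49 M reads in TAM, 10.4 and 4.75 M in Fibroblast, 10.4 and 4.30 M in LLC, and 10.0 and 4.73 M in Total tumor. A single read on a locus of median length was worth 1.25 to 3.04 RPKM, so 1 read was enough to pass the minimum of 1 RPKM. On the same scale, 1 read on a transcript of 2 kb was worth 0.048 to 0.116 RPKM. Of the 292 loci whose length was known, 113 had fewer than 10 reads over all 8 libraries, 152 had 10 to 99 and 27 had 100 or more. The median was 13 reads per locus over all libraries. Of the single values, 44.2% were 0, 12.1% were 1 read, 31.4% were 2 to 9 reads and 12.3% were 10 reads or more. All the loci together held 0.0214 to 0.0401% of the reads of a library.

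The macrophage and fibroblast markers followed the labels. All 9 macrophage markers were called higher in TAM than in Fibroblast and than in LLC, and their summed level was 13919 and 10379 RPKM in TAM, against 149 and 174 RPKM in Fibroblast and 61.7 and 329 RPKM in LLC. All 7 fibroblast markers were called lower in TAM than in Fibroblast, with sums of 128 and 623 RPKM in TAM and 23210 and 21772 RPKM in Fibroblast. LLC held 3718 and 4942 RPKM of the same 7 genes. The epithelial markers did not set LLC apart: their sums were 11.2 and 12.7 RPKM in TAM, 24.8 and 179 RPKM in Fibroblast, 179 and 129 RPKM in LLC, and 129 and 302 RPKM in Total tumor. Fibroblast 2 thus held as much as LLC 1, and the part of this in the results was not tested. Total tumor 2 also stood apart in its neutrophil markers (581 RPKM, against 121 RPKM in Total tumor 1). In bulk RNA, fewer cells of a type and less RNA per cell cannot be told apart.

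The replicate spread of these loci was wider than that of other genes at the same level. Among loci with a mean of 1 to 3 RPKM in TAM, the median absolute log2 difference between the 2 libraries was 2.16 (48 loci), and it was 0.38 for 1908 other genes. Above 30 RPKM the medians in TAM were 0.69 for the loci and 0.26 for other genes. Over the 4 groups and 4 level ranges, the median of the loci was 1.44 to 7.33 times that of other genes. Reads were found in only 1 of the 2 libraries for 86 of 175 loci with any read in TAM (49.1%). The shares were 51.0% in Fibroblast, 44.3% in LLC and 62.6% in Total tumor. Loci with 10 or more reads in both libraries differed by a median of 0.61 in TAM, 0.52 in Fibroblast, 0.40 in LLC and 0.75 in Total tumor (log2). Loci with fewer reads differed by 1.78, 1.38, 1.35 and 2.02 in the same 4 groups.

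**Figure D1:**
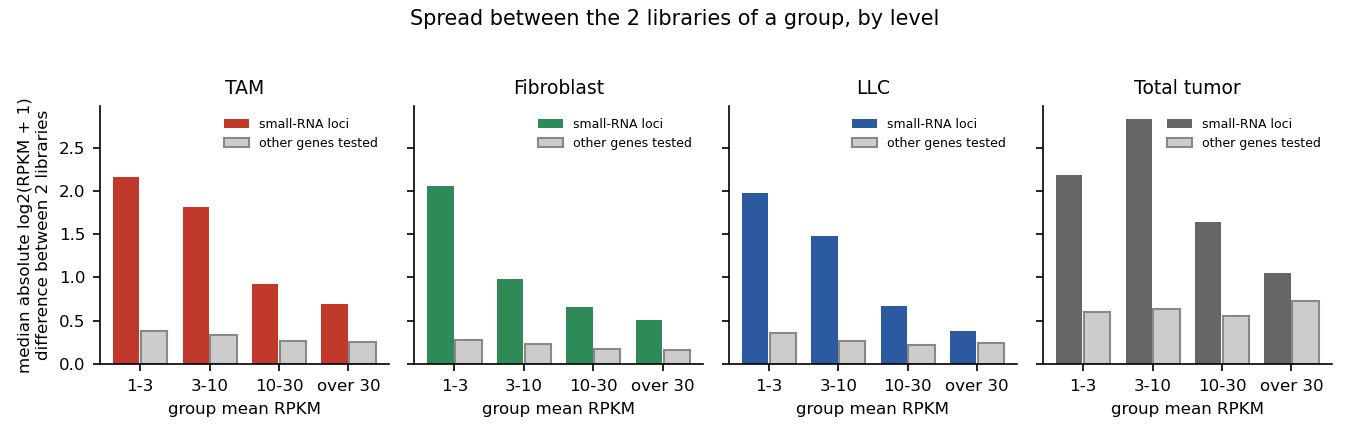
Bars give the median absolute log2 difference between the 2 libraries of a group (vertical axis) by mean RPKM of the group (horizontal axis, 4 ranges), for the microRNA and snoRNA loci and for all other tested genes, in 1 panel per group. The loci lie above the other genes in every range, by 1.44 to 7.33 times.

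Most of the loci lie inside longer transcripts. Of the 220 microRNA hairpins, 59 lay mainly in an exon of a host gene on the same strand, 30 overlapped the edge of an exon and 105 lay in an intron. A further 16 lay on the opposite strand of a gene, 9 between genes, and 1 (Mir1957b) could not be placed. Exon positions made up 26.8% of these hairpins, against 7.76% of the 863 microRNA symbols below the minimum, and positions between genes 4.09% against 25.7%. Of the 73 snoRNAs, 64 lay in introns. The minimum on RPKM chose both sets, so these shares are descriptions and were not tested.

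Splice sites recurred among the microRNA hairpins. An end of the hairpin lay within 2 nt of a splice site for 94 of the 220 hairpins (42.7%), against 134 of the 863 below the minimum (15.5%). Of the 94, 79 ended where an intron ends, 10 spanned a whole intron and 5 began where an intron begins. Their 3p arms show the same position in their letters. Among intronic hairpins that end exactly at an intron's last base, 57 of 72 3p arms finish with the splice acceptor letters AG (79.2%). Of the other microRNA loci, 14 of 66 do (21.2%). Hairpins that end within 2 nt of an intron's end but overlap an exon were counted among the others. The printed 3p arms of miR-7115, miR-7050, miR-7091, miR-6961 and miR-6978 all end this way. No snoRNA had an end at a splice site. Intronic C/D snoRNAs lay a median of 86 nt before the intron's end, and intronic H/ACA snoRNAs 134 nt.

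A host transcript in the table was found for 254 of the 295 loci, in 227 hosts. RPKM is a level per length, so a locus can be set beside its host. The mean RPKM of a locus was a median of 52.3% of its host's in exons, 19.3% at exon edges and 5.77% in introns. Among loci with 10 or more reads in at least 2 libraries these medians were 85.5, 31.1 and 23.6%. All the ratios here cover only loci that met the minimum, so they depend on that cut and leave out the loci below it. Among microRNA hairpins in exons the median was 85.1% in coding sequence (14 loci), 81.8% in 3′ untranslated regions (20 loci), 27.1% in 5′ untranslated regions (10 loci) and 33.4% in noncoding exons. Of the 59 hairpins in exons, 53 had a host level, and the others all lay in noncoding exons. The last median therefore rests on fewer than the 15 loci placed there. Hairpins that ended at an intron's end had a median of 6.67% of the host level (79 loci) and those well inside an intron 4.38% (17 loci). In introns, C/D snoRNAs had a median of 4.09% and H/ACA snoRNAs 14.8%. Only 19 of the 254 loci exceeded their host. The highest ratios came from hosts near 0, as with Mir6369 at 1001% of Kif27 on 4 reads. With at least 100 reads, the loci above their host were Snora65 at 339% of Rpl12, Mir686 at 251%, Mir671 at 189%, Mir5046 at 163%, Mir546 at 137% of Ctdsp2, Mir5114 at 131% and Mir678 at 119%. Rpl12 averaged 5.65 RPKM, and since ribosomal protein genes have near-identical copies in the genome, that ratio is uncertain.

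**Figure D2:**
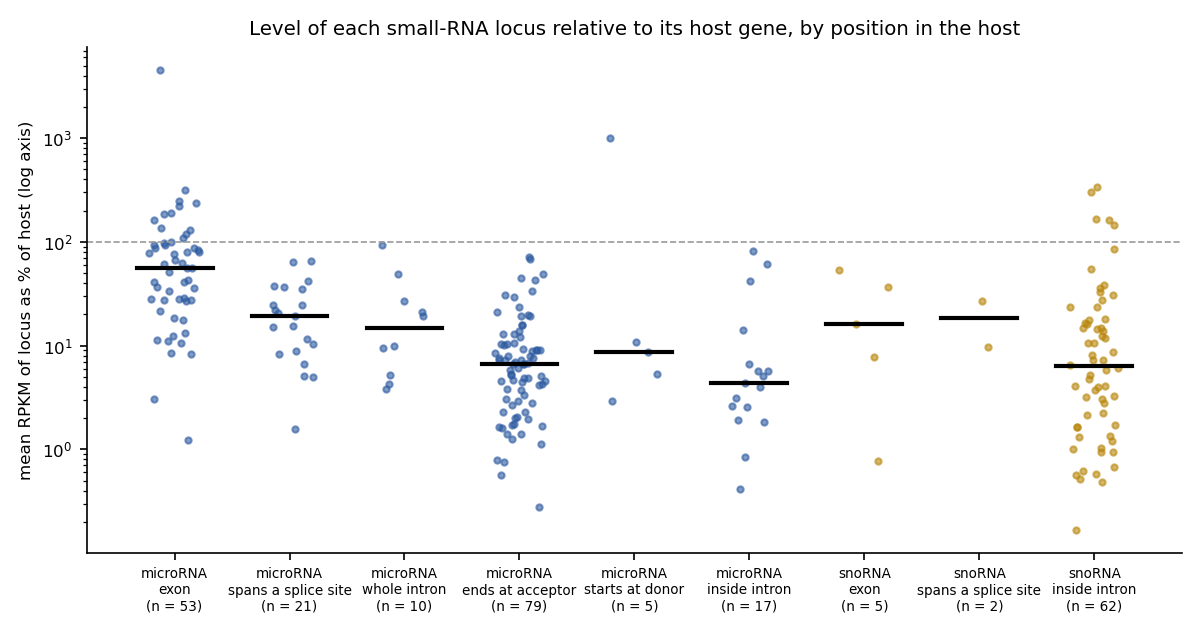
Mean RPKM of each locus as a percentage of the mean RPKM of its host gene (vertical log axis), by position in the host; points are loci, short lines are medians and the dashed line marks 100%. Among microRNA hairpins the median is 56.2% in exons and 4.38% well inside introns.

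The most abundant locus was Mir6236, which lies between genes and held 7318 reads. It had 1249 and 1206 RPKM in TAM, 682 and 441 RPKM in Fibroblast, 1014 and 732 RPKM in LLC, and 1564 and 1112 RPKM in Total tumor. Fibroblast was lowest, and no comparison between sorted populations passed the test (adjusted p = 0.102 for TAM against Fibroblast, limma with Benjamini-Hochberg adjustment over all genes tested). Mir8094 came next, with 90 of its 117 bases in a coding exon of Ddx39b, which encodes an RNA helicase of splicing and export. It had 151 and 80.7 RPKM in TAM, 109 and 43.5 RPKM in Fibroblast, 199 and 112 RPKM in LLC, and 154 and 213 RPKM in Total tumor, a mean of 92.7% of its host.

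TAM and Fibroblast were compared to ask which loci separate the macrophages from the fibroblasts of the same tumors. Of the 295 loci, 20 were called higher in TAM (6.78%) and 15 lower (5.08%), against 17.4 and 17.3% of all genes tested. The median log2 difference was 0.00 for the loci and 0.13 for all genes. Of the 19 higher loci with known reads, 10 had fewer than 10 reads in the 4 libraries, and 13 had none in Fibroblast. Over both directions 28 of the called loci had a tested host, and 18 of these hosts were called the same way as the locus. Hosts were called, in either direction, for 72 of the 251 loci with a tested host. Without Fibroblast 2, 14 loci were higher in TAM, and without either Total tumor library, which changes only the estimate of the spread, 31 were.

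Mir5107 overlaps the edge of an exon of Cd74, which encodes the invariant chain of MHC class II. It had 305 and 428 RPKM in TAM, 12.1 and 7.26 RPKM in Fibroblast, 1.10 and 13.4 RPKM in LLC, and 52.7 and 43.7 RPKM in Total tumor. Those values rest on 228 and 167 reads in TAM against 11 and 3 in Fibroblast and 1 and 5 in LLC. TAM lay far above both other sorted populations with no overlap, and Total tumor lay between. On the log2(RPKM + 1) scale TAM exceeded Fibroblast by 5.12 (SE 0.77, adjusted p = 0.00138) and LLC by 6.04 (SE 0.77, adjusted p = 0.000672), in limma's test. Cd74 itself had 3087 and 5459 RPKM in TAM, 101 and 122 RPKM in Fibroblast, and 20.6 and 145 RPKM in LLC, and its log2 difference between TAM and Fibroblast was 5.19 (SE 0.80).

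Mir7676-1 and Mir7676-2 lie in coding exons of Csf2rb2 and Csf2rb, which are near-identical genes. Of these, Csf2rb encodes the shared receptor chain of GM-CSF, IL-3 and IL-5. Their listed values are identical, so the reads of the pair cannot be told apart. Both had 38.2 and 29.2 RPKM in TAM (20 and 8 reads), were listed at 0 in Fibroblast and LLC, and had 3.27 and 3.46 RPKM in Total tumor. The TAM libraries were the only sorted ones with reads, and adjusted p was 0.000104 against Fibroblast and 9.87e-05 against LLC. Csf2rb2 had 27.0 and 29.8 RPKM in TAM, 2.58 and 5.02 RPKM in Fibroblast, and 0.393 and 0.529 RPKM in LLC.

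Mir7115, the hairpin at the end of an intron of the beta-arrestin gene Arrb2, had 115 and 31.8 RPKM in TAM, 1.52 and 3.34 RPKM in Fibroblast, and 15.2 and 18.5 RPKM in LLC. TAM exceeded Fibroblast by 4.22 on the log2 scale (SE 0.56, adjusted p = 0.000739, limma). Both libraries of LLC lay below both of TAM, but that call (log2 difference 1.79, adjusted p = 0.0346) was lost under 8 of 18 alternative settings, including without TAM 1, with adjusted p of 0.0055 to 0.172 over them. Mir7050, at the end of an intron of Fxyd5 (a regulator of the sodium pump), had 59.3 and 34.0 RPKM in TAM, 6.51 and 10.7 RPKM in Fibroblast, and 0 and 3.94 RPKM in LLC. It was higher in TAM than in LLC by 4.37 (SE 0.89, adjusted p = 0.00593). Against Fibroblast the log2 difference was 2.29 with an adjusted p of 0.0855, although its host passed there (2.09, SE 0.46, adjusted p = 0.00927).

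Mir7091, the whole intron of Dnase1l1 printed above, had 37.4 and 20.003 RPKM in TAM, 6.15 and 5.39 RPKM in Fibroblast, 9.85 and 5.96 RPKM in LLC, and 6.39 and 8.13 RPKM in Total tumor. TAM was the highest group without overlap and exceeded Fibroblast by 2.07 on the log2 scale (SE 0.36, adjusted p = 0.00302). Dnase1l1, a relative of the nuclease DNase I, had 72.8 and 58.5 RPKM in TAM, 9.42 and 10.3 RPKM in Fibroblast, and 9.29 and 11.0 RPKM in LLC. Mir1668, which covers a short intron of the adhesion receptor gene Cd97 with exon bases on both sides, had 88.0 and 37.9 RPKM in TAM, 9.06 and 1.99 RPKM in Fibroblast, and 2.72 and 4.39 RPKM in LLC. It exceeded LLC by 3.72 (SE 0.74, adjusted p = 0.00553). Against Fibroblast the difference was 3.42, a call lost without TAM 1 and without Fibroblast 2 (adjusted p up to 0.0764).

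Some calls in TAM rested on a handful of reads. Over all groups, 16 loci met the minimum through both libraries of 1 group and no other library, and they account for 45 of the 243 calls. Loci such as Mir6950 and Mir1949, which reached it in a further library but would fail without their high group, are not among the 16. Mir6961, in an intron of Bin2 (a membrane-bending protein of blood cells), had 5.30 and 6.75 RPKM in TAM from 3 and 2 reads and was listed at 0 in all other libraries. Mir6983, within the macrophage growth factor receptor gene Csf1r, likewise had 5.55 and 7.08 RPKM in TAM from 3 and 2 reads and 0 elsewhere. Both met the minimum through the TAM libraries alone, so their difference is a description of the choice and no test of it is given. Mir6961 was 6.70% of Bin2, whose 74.8 and 65.6 RPKM in TAM stood against 1.07 and 0.964 RPKM in Fibroblast.

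**Figure D3:**
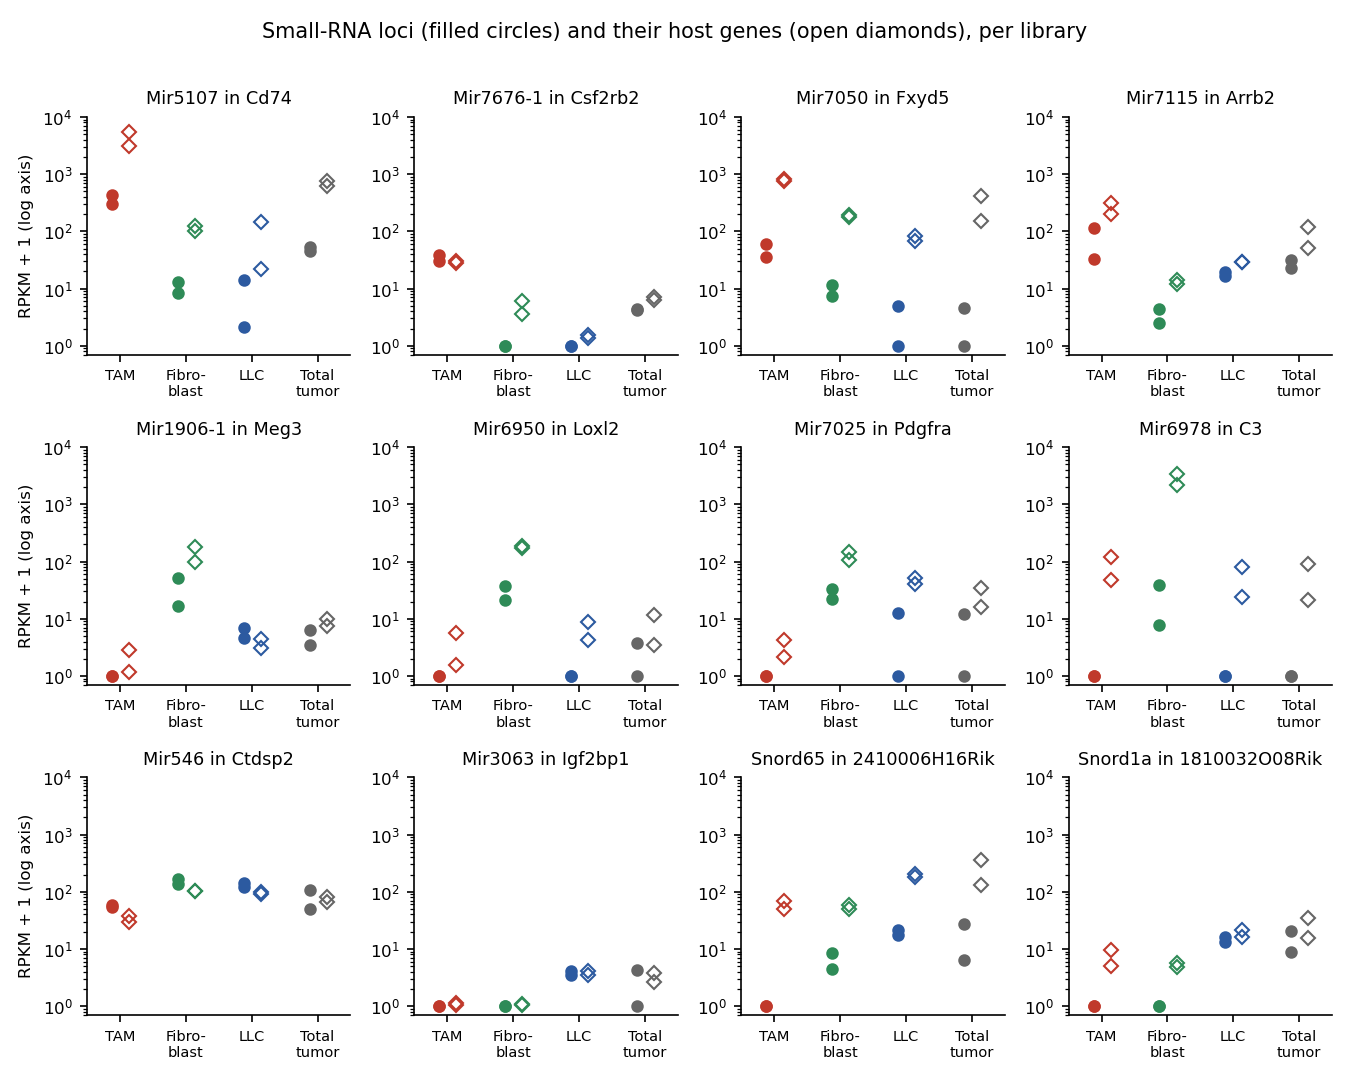
RPKM + 1 per library (log axis) of 12 small-RNA loci (filled circles) and their host genes (open diamonds) in TAM, Fibroblast, LLC and Total tumor; each point is 1 library. Each locus is highest in a group in which its host is also highest or among the highest, at a level at or below the host in most panels, as for Mir5107 at 305 and 428 RPKM in TAM beside Cd74 at 3087 and 5459 RPKM. The 12 loci were picked by hand, and loci whose host was called the other way, such as Mir7072, are not shown. Mir6950, Mir6978 and Mir3063 met the minimum only through the group where they are high. The match is thus a description of the choice.

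The 15 loci called lower in TAM than in Fibroblast include hairpins in Meg3, Loxl2, C3, Sned1, Slit2 and Pdgfra. Those in Loxl2, C3, Sned1 and Slit2 would not have met the minimum without Fibroblast. Their place among the 15 is thus a description of the choice. Mir1906-1, in an exon of the imprinted noncoding RNA Meg3, was listed at 0 in both TAM libraries and had 49.8 and 16.0 RPKM in Fibroblast, 3.65 and 5.89 RPKM in LLC, and 2.52 and 5.35 RPKM in Total tumor. The Fibroblast values rest on 41 and 6 reads. Fibroblast was highest without overlap (adjusted p = 0.000318 for TAM against Fibroblast, and 0.0117 for a log2 difference of 2.38 between Fibroblast and LLC, limma). The second of these calls was lost without Fibroblast 1 and without LLC 1, with adjusted p of up to 0.0861. Meg3 had 0.193 and 1.85 RPKM in TAM, 179 and 95.4 RPKM in Fibroblast, and 2.07 and 3.34 RPKM in LLC. Mir1906-2 is listed with the same values as Mir1906-1.

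Mir6950 lies at an exon edge of Loxl2, whose enzyme crosslinks collagen. It was listed at 0 in TAM, had 36.0 and 20.5 RPKM in Fibroblast, was listed at 0 in LLC, and had 2.77 and 0 RPKM in Total tumor. Without the Fibroblast libraries Mir6950 would not have met the minimum, so no test of it is given. Loxl2 had 0.564 and 4.53 RPKM in TAM, 189 and 173 RPKM in Fibroblast, and 3.22 and 7.83 RPKM in LLC, so host and locus were both highest in the fibroblasts.

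Mir6978 lies at the end of an intron of the complement gene C3. It was listed at 0 in TAM, had 6.86 and 37.6 RPKM in Fibroblast (4 and 10 reads), and had no read in LLC or Total tumor. C3 had 45.8 and 119 RPKM in TAM, 2158 and 3348 RPKM in Fibroblast, and 22.8 and 79.7 RPKM in LLC, so the locus stood at 0.755% of its host. Mir6901, at an exon edge of the matrix gene Sned1, and Mir218-1, in an intron of the guidance gene Slit2, also had reads in Fibroblast alone. Their Fibroblast values were 4.72 and 10.3 RPKM for Mir6901 and 3.52 and 5.79 RPKM for Mir218-1. All 3 met the minimum through Fibroblast alone, so no test of them is given.

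The host of Mir218-1 was present in LLC too. Slit2 had 0.044 and 0.308 RPKM in TAM, 5.55 and 3.12 RPKM in Fibroblast, and 3.47 and 6.08 RPKM in LLC, and its log2 difference between Fibroblast and LLC was -0.11 (adjusted p = 0.861). Mir218-1 itself had 7 reads in all, and whether it differs from its host was not tested.

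Mir7025, the hairpin that begins inside a coding exon of the growth factor receptor gene Pdgfra, had 0 RPKM in both TAM libraries, 21.0 and 31.7 RPKM in Fibroblast, 11.8 and 0 RPKM in LLC, and 10.9 and 0 RPKM in Total tumor. The call between TAM and Fibroblast (adjusted p = 0.0277) was lost without any 1 of the 4 TAM and Fibroblast libraries, with adjusted p of up to 0.155. Pdgfra had 1.14 and 3.17 RPKM in TAM, 104 and 145 RPKM in Fibroblast, and 39.99 and 51.3 RPKM in LLC. Fibroblast markers were also present in TAM 2 (623 RPKM in sum, against 128 in TAM 1), and their part in these differences was not tested.

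Mir130c and Mir546, with more reads, were also called lower in TAM. Mir130c lies on the opposite strand of Kdelc2 and wholly within its exon, and the strand setting of the counting is not given in the sources used here, so reads of the pair cannot be told apart. It had 10.1 and 2.75 RPKM in TAM, 49.8 and 75.3 RPKM in Fibroblast, 58.1 and 86.1 RPKM in LLC, and 28.3 and 41.7 RPKM in Total tumor. TAM was lowest without overlap, by -3.27 against Fibroblast (SE 0.51, adjusted p = 0.00168) and -3.48 against LLC (SE 0.51, adjusted p = 0.00131) on the log2 scale. Kdelc2, which codes for an endoplasmic reticulum protein, had 5.87 and 6.13 RPKM in TAM, 31.3 and 37.1 RPKM in Fibroblast, and 25.4 and 29.9 RPKM in LLC.

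Mir546 lies in the 3′ untranslated region of Ctdsp2, a phosphatase gene, and held 740 reads. It had 52.4 and 57.6 RPKM in TAM, 136 and 165 RPKM in Fibroblast, 140 and 118 RPKM in LLC, and 106 and 49.3 RPKM in Total tumor. The log2 difference between TAM and Fibroblast was -1.43 (SE 0.36, adjusted p = 0.0175), and the call was lost without any 1 of the 4 libraries of those groups (adjusted p up to 0.123). Ctdsp2 had 28.7 and 36.3 RPKM in TAM and 100 and 102 RPKM in Fibroblast, and its difference was -1.62 (SE 0.24, adjusted p = 0.00124).

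Against the tumor cells, 23 loci were called higher in TAM than in LLC (7.80%) and 33 lower (11.2%), where all genes gave 15.4 and 27.5%. In Fibroblast, 14 loci were called higher than in LLC (4.75%) and 37 lower (12.5%), where all genes gave 13.0 and 25.7%. Median log2 differences were -0.68 for TAM minus LLC and -0.65 for Fibroblast minus LLC over the loci, and -0.38 and -0.46 over all genes. Upper-quartile rescaling moved the median of all genes to -0.21 for TAM minus LLC and -0.05 for Fibroblast minus LLC. Of the 33 loci lower in TAM than in LLC, 20 had fewer than 10 reads in the 4 libraries and 26 had no read in TAM. The 2 comparisons share the LLC libraries. Single libraries moved these counts: the lower calls in Fibroblast numbered 15 without Fibroblast 2, 19 without Fibroblast 1, 24 without LLC 1 and 59 without either Total tumor library, and the higher calls 6 without LLC 1, 7 without Fibroblast 2 and 9 without Fibroblast 1. For TAM minus LLC the higher calls numbered 15 without LLC 2, and the lower calls 54 without either Total tumor library.

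Several loci between genes or in introns had reads in LLC and none in TAM or Fibroblast. Mir1949 had 8.35 and 10.1 RPKM in LLC and 1.45 and 0 RPKM in Total tumor. It would not have met the minimum without LLC, so its difference is given without a test. Mir27a, a member of the miR-23a, miR-27a and miR-24-2 cluster, had 3.35 and 5.41 RPKM in LLC and 1.16 and 0 RPKM in Total tumor, from 6 reads in all. Its neighbour Mir23a had 4.72 and 3.01 RPKM in TAM, 0 in both Fibroblast libraries, 5.19 and 15.7 RPKM in LLC and 0 in both Total tumor libraries.

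The third member of that cluster, Mir24-2, had reads in every group, with 8.80 and 6.31 RPKM in TAM, 7.24 and 3.97 RPKM in Fibroblast, 1.81 and 8.78 RPKM in LLC and 4.71 and 0 RPKM in Total tumor. The 3 hairpins of 1 cluster thus gave 3 different orders of the groups at 6 to 32 reads each. Mir3063, in the 3′ untranslated region of the fetal RNA-binding protein gene Igf2bp1, was listed at 0 in TAM and Fibroblast and had 3.17 and 2.56 RPKM in LLC and 3.29 and 0 RPKM in Total tumor. Mir3063 too would have missed the minimum without LLC, and no test of it is given. Igf2bp1 had 0.153 and 0.053 RPKM in TAM, 0.080 and 0.050 RPKM in Fibroblast, and 2.46 and 3.06 RPKM in LLC, and its difference between TAM and LLC was -1.76 (adjusted p = 0.00178).

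Each sorted population was also compared with Total tumor, and these comparisons share its 2 libraries. Relative to Total tumor, 20 loci were called higher in TAM (6.78%) and 28 lower (9.49%), against 11.3 and 23.9% of all genes. In Fibroblast 12 were higher (4.07%) and 33 lower (11.2%), against 12.1 and 30.0%. In LLC 6 were higher (2.03%) and 2 lower (0.678%), against 0.0526 and 2.30%. Of the 6 called higher in LLC, 5 had no read in Total tumor and 5 had fewer than 10 reads in the 4 libraries. Without Total tumor 1, 36 loci were called higher in LLC, 32 in Fibroblast and 33 in TAM, and without either Fibroblast library, LLC 1 or TAM 1 the count for LLC was 0 (19 at an unadjusted p under 0.05 in limma's fit of all libraries). The lower calls in TAM numbered 17 without TAM 1 or TAM 2 and 44 without Total tumor 2, and those in Fibroblast 15 without Fibroblast 1 and 12 without Fibroblast 2.

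The difference of each locus was set beside that of its host. Across 251 loci, Pearson's r between the 2 log2 differences was 0.66 for TAM minus Fibroblast, 0.66 for TAM minus LLC and 0.65 for Fibroblast minus LLC. It was 0.56 for TAM, 0.60 for Fibroblast and 0.25 for LLC, each minus Total tumor. Among the 47 of them with 10 or more reads in at least 2 libraries it was 0.84, 0.88 and 0.84 between sorted populations, and 0.71, 0.71 and 0.53 for TAM, Fibroblast and LLC minus Total tumor. These are descriptions across loci. Locus and host come from the same libraries, some hosts hold several loci, and where a locus lies in an exon a read can count for both. By position, r for TAM minus Fibroblast was 0.71 in exons (57 loci), 0.88 at exon edges (31 loci) and 0.52 in introns (163 loci). Over all 6 comparisons there were 198 calls of a locus with a tested host. The host had the same sign in 177, was itself called the same way in 126 and was not called in 69. For TAM minus Fibroblast, TAM minus LLC and Fibroblast minus LLC, hosts were called for 72, 126 and 122 of the 251 loci. In these, 18, 28 and 24 loci were called the same way. For TAM, Fibroblast and LLC minus Total tumor, hosts were called for 116, 135 and 7, with 27, 27 and 2 loci called the same way. Some of the 198 calls belong to loci that met the minimum through 1 group.

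The host was called the other way in 3 calls. Mir7072 had 0 in TAM and 3.25 and 3.94 RPKM in LLC. Its host Nlrc5, an activator of MHC class I genes, had 14.4 and 19.7 RPKM in TAM and 5.10 and 6.11 RPKM in LLC. With 4 reads in all, Mir7072 would not have met the minimum without LLC, so its call is a description of the choice. Mir6955 had 9.20 and 2.88 RPKM in Fibroblast and 0 in Total tumor, while its host Gga1, a sorting adaptor of the Golgi, had 24.0 and 17.9 RPKM in Fibroblast and 33.0 and 63.2 RPKM in Total tumor. The call of Mir6955 was lost without any 1 of those 4 libraries (adjusted p up to 0.169). Mir1943 had 12.9 and 3.10 RPKM in TAM and 0 in Total tumor, while its host Tmem184b had 34.1 and 43.0 RPKM in TAM and 56.2 and 80.0 RPKM in Total tumor. That call was lost without TAM 1 (adjusted p up to 0.0909). Over all libraries the 3 loci held 4, 26 and 11 reads.

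**Figure D4:**
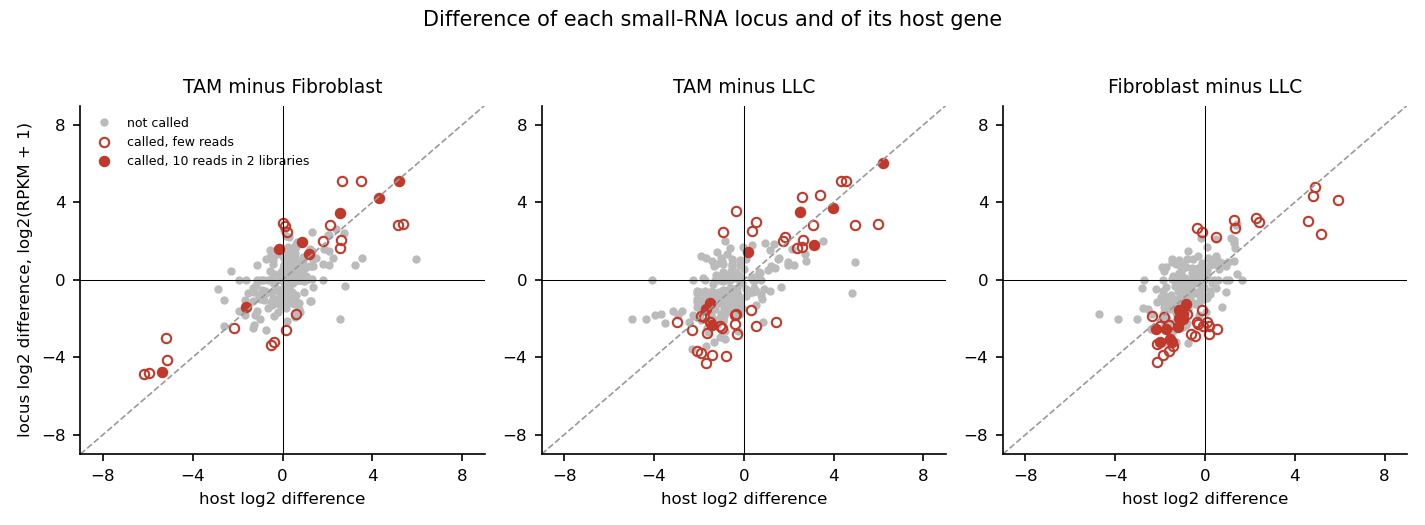
Log2 difference of each locus (vertical axis) against that of its host gene (horizontal axis) for TAM minus Fibroblast, TAM minus LLC and Fibroblast minus LLC; grey points were not called, open red points were called with few reads and filled red points were called with 10 or more reads in at least 2 libraries. The dashed line marks equal differences, and r over the 47 loci with that many reads was 0.84, 0.88 and 0.84.

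Most snoRNA calls among the sorted populations set TAM or Fibroblast below LLC. Of the 73 snoRNAs, 12 were called lower (16.4%) and 1 higher (1.37%) in TAM than in LLC, against 27.5 and 15.4% of all genes. In Fibroblast 16 were lower than in LLC (21.9%, against 25.7% of all genes) and 0 higher (against 13.0%; 0 also at an unadjusted p under 0.05 in limma's test). The shares called lower were thus below those of all genes in both comparisons. Median log2 differences were -1.44 for TAM minus LLC and -1.48 for Fibroblast minus LLC, beside -0.38 and -0.46 over all genes. Over all loci and comparisons no call changed sign under either rescaling, but 35 of the 243 calls were lost with upper-quartile rescaling and 33 with quantile normalization. Between TAM and Fibroblast 2 were called higher and 2 lower (2.74% each, against 17.4 and 17.3% of all genes), with a median of 0.00. In reads per M reads of the library, all C/D loci together had 12.5 and 10.0 in TAM, 7.9 and 7.8 in Fibroblast, 38.8 and 34.4 in LLC, and 30.7 and 39.96 in Total tumor. The H/ACA loci had 16.0 and 15.4 in TAM, 12.0 and 9.3 in Fibroblast, 29.1 and 28.4 in LLC, and 23.2 and 27.7 in Total tumor. LLC and Total tumor lay above TAM and Fibroblast in every library for both classes. The microRNA loci without Mir6236 were in another order, with 198 and 190 reads per M in TAM, 144 and 143 in Fibroblast, 176 and 163 in LLC, and 156 and 185 in Total tumor.

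**Figure D5:**
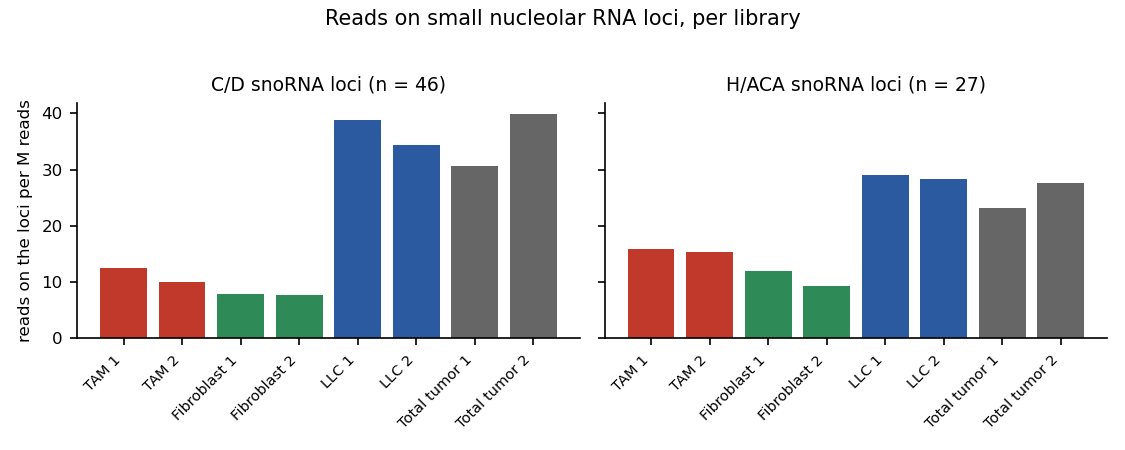
Reads per M reads of the library (vertical axis) on all C/D and all H/ACA snoRNA loci, 1 bar per library, in TAM, Fibroblast, LLC and Total tumor. The C/D sums are 12.5 and 10.0 in TAM and 7.9 and 7.8 in Fibroblast, below 38.8 and 34.4 in LLC.

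Of the single C/D snoRNAs described here, each was higher in both LLC libraries than in any TAM or Fibroblast library. Snord65, in an intron of the noncoding host 2410006H16Rik, was listed at 0 in TAM and had 3.43 and 7.51 RPKM in Fibroblast, 20.6 and 16.6 RPKM in LLC, and 5.34 and 26.4 RPKM in Total tumor (adjusted p = 0.00146 for TAM against LLC, limma). Its host had 69.0 and 49.9 RPKM in TAM, 56.6 and 49.8 RPKM in Fibroblast, and 201 and 176 RPKM in LLC. Snord1a, in an exon of 1810032O08Rik, was listed at 0 in TAM and Fibroblast and had 15.4 and 12.4 RPKM in LLC (12 and 4 reads) and 7.98 and 19.7 RPKM in Total tumor. Its adjusted p was 0.000289 for TAM and 0.000526 for Fibroblast, each against LLC.

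Snord87, in an intron of Snhg6, had no read in TAM or Fibroblast either, and 10.5 and 12.7 RPKM in LLC. Snhg6 had 28.6 and 22.7 RPKM in TAM, 39.5 and 31.8 RPKM in Fibroblast, and 126 and 96.4 RPKM in LLC. Snord12, whose annotated host Zfas1 was not used here, had 3.59 and 0 RPKM in TAM, 13.3 and 9.71 RPKM in Fibroblast, 36.9 and 32.2 RPKM in LLC, and 26.1 and 39.0 RPKM in Total tumor. It was lower in TAM than in LLC by -4.05 on the log2 scale (SE 0.63, adjusted p = 0.00171).

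Among the H/ACA snoRNAs, Snora64 lies in an intron of the ribosomal protein gene Rps2. It had 2.01 and 1.92 RPKM in TAM, 0 in both Fibroblast libraries, 9.10 and 6.01 RPKM in LLC, and 11.2 and 5.47 RPKM in Total tumor. Fibroblast was lower than LLC (adjusted p = 0.000826). The log2 difference between TAM and LLC was -1.51 (adjusted p = 0.0125), a call lost without TAM 1, without TAM 2 and without LLC 1 (adjusted p up to 0.0914). Rps2 had 113 and 92.7 RPKM in TAM, 121 and 104 RPKM in Fibroblast, and 402 and 276 RPKM in LLC. Snora31 and Snora70 were called in other orders. Snora31, in the gene Tpt1 for a translationally controlled protein, was higher in TAM than in LLC by 1.41 (adjusted p = 0.0432). It had 17.9 and 36.1 RPKM in TAM and 9.51 and 8.38 RPKM in LLC, and the call was lost under 5 of 18 alternatives, among them without TAM 2 and without either LLC library (adjusted p up to 0.237). Tpt1 differed by 0.21 (adjusted p = 0.634). Snora70 had 11.8 and 15.7 RPKM in TAM, 4.499 and 1.64 RPKM in Fibroblast, and 9.001 and 16.4 RPKM in LLC, and its difference between TAM and Fibroblast was 1.94 (adjusted p = 0.0123). Without TAM 2 or without Fibroblast 2 that call was lost (adjusted p up to 0.106).

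By host, 26 snoRNAs lay in 20 cytosolic ribosomal protein genes, 16 in 9 noncoding transcripts and 27 in 22 other protein-coding genes. In Fibroblast against LLC, where 25.7% of all genes were called lower, 9 of the 26 in ribosomal protein genes were called lower (34.6%) and so were 6 of their 20 hosts. In noncoding transcripts 4 of 16 snoRNAs and 7 of 9 hosts were called lower, and in the other genes 3 of 27 snoRNAs and 15 of 22 hosts. For TAM against LLC, with 27.5% of all genes called lower, the lower calls were 5 of 26 snoRNAs and 6 of 20 hosts for ribosomal protein genes, 3 of 16 and 7 of 9 for noncoding transcripts, and 2 of 27 and 13 of 22 for the other genes. Apart from the 9 of 26, each of these snoRNA shares was below that of all genes. Some hosts hold several of the loci: Rpl13a held 5 of the loci (Mir5121, Snord32a, Snord33, Snord34 and Snord35a), and Snhg12 held 4.

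Genes for the proteins that make snoRNAs were also compared. Of 24 genes for snoRNP proteins and snoRNA maturation, 0 were higher and 17 lower in TAM than in LLC (70.8% lower, against 27.5% of all genes), and 0 higher and 19 lower in Fibroblast than in LLC (79.2%, against 25.7%), with median log2 differences of -1.34 and -1.45. At an unadjusted p under 0.05 in limma's test there were again 0 higher in both comparisons. TAM exceeded Fibroblast in 2 (8.33%, against 17.4% of all genes) and was lower in 0 (against 17.3%), with a median of 0.24. Nop58, a core protein of C/D particles, had 25.05 and 20.3 RPKM in TAM, 29.5 and 30.6 RPKM in Fibroblast, 128 and 104 RPKM in LLC, and 114 and 99.6 RPKM in Total tumor. Its difference between TAM and LLC was -2.31 (SE 0.23, adjusted p = 0.000264). Dkc1, the pseudouridine synthase of H/ACA particles, had 4.94 and 7.92 RPKM in TAM, 6.17 and 10.9 RPKM in Fibroblast, and 38.6 and 35.1 RPKM in LLC, a difference of -2.38 (SE 0.34, adjusted p = 0.00123). Of 21 tested noncoding transcripts known as hosts of small RNAs, 1 was higher (4.76%, against 15.4% of all genes) and 11 lower (52.4%, against 27.5%) in TAM than in LLC. In Fibroblast 6 were higher (28.6%, against 13.0%) and 9 lower (42.9%, against 25.7%) than in LLC. Meg3, described above, was higher in Fibroblast, whereas Gas5 was highest in LLC. It had 34.5 and 27.9 RPKM in TAM, 46.1 and 43.6 RPKM in Fibroblast, and 177 and 141 RPKM in LLC.

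Of 24 tested genes for microRNA processing, 0 were higher and 7 lower in TAM than in LLC, and 0 higher and 7 lower in Fibroblast than in LLC. The lower calls were 29.2% of the list in each, near the 27.5 and 25.7% of all genes. At an unadjusted p under 0.05 in limma's test, 0 were higher in both. Medians were -0.71 and -0.79. Drosha had 6.94 and 8.06 RPKM in TAM, 10.3 and 11.4 RPKM in Fibroblast, and 27.7 and 24.7 RPKM in LLC, and fell by 1.68 on the log2 scale in TAM relative to LLC (SE 0.22, adjusted p = 0.00073). Dicer1 did not pass there (-0.91, SE 0.36, adjusted p = 0.0765). Between TAM and Fibroblast 1 gene was lower (4.17%, against 17.3% of all genes), the RNA-editing gene Adarb1 (-2.09, adjusted p = 0.00313, limma). Another 1 was higher (4.17%, against 17.4%), the uridylating enzyme gene Zcchc6 (1.08, adjusted p = 0.0273).

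Well-known microRNAs were mostly without signal in these libraries. Of 96 symbols matched to a textbook list by name pattern, 14 met the minimum, 11 fell below it and 71 were listed at 0 in all 8 libraries. Those at 0 include Mir155, Mir126a, Mir143, Mir210, Mir34a, Mir17, Mir19a and most let-7 loci. The pattern for Mir29 also took in the symbols from Mir290a to Mir299b, which are outside the list and were all at 0. The counts of 96 and 71 are therefore too high for the list itself. At these depths a listed 0 on a locus this short says only that no read was placed there. Mir21a had 2 reads, both in LLC 2.

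Mir223, the microRNA of the myeloid lineage, lies in the noncoding transcript F630028O10Rik and had 2.14 and 2.04 RPKM in TAM from 2 and 1 reads, 0 in Fibroblast and LLC, and 0.915 and 0 RPKM in Total tumor. It met the minimum through TAM alone. Its host had 5.63 and 4.26 RPKM in TAM, 0 in both Fibroblast libraries, and 0.104 and 0.168 RPKM in LLC, and was higher in TAM than in Fibroblast (adjusted p = 0.000247, limma). Mir142b, which lies opposite the host transcript of the blood-cell microRNA miR-142, had 8.18 and 11.7 RPKM in TAM, 0 in Fibroblast, 0.842 and 2.04 RPKM in LLC, and 4.38 and 13.0 RPKM in Total tumor. TAM was above Fibroblast (adjusted p = 0.000975), on 28 reads in all, and without a known strand setting reads of the pair cannot be told apart.

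The 2 host transcripts among the loci, Mir22hg and Mir17hg, are spliced and longer than the hairpins. Mir22hg had 16.5 and 12.5 RPKM in TAM, 10.0 and 8.83 RPKM in Fibroblast, 2.83 and 3.03 RPKM in LLC, and 6.39 and 4.08 RPKM in Total tumor. TAM exceeded LLC by 1.97 (SE 0.29, adjusted p = 0.00132), and TAM minus Fibroblast was 0.56 with an adjusted p of 0.181. The hairpin Mir22, in an exon of Mir22hg, had 1.24 and 7.11 RPKM in TAM, 10.2 and 22.4 RPKM in Fibroblast, and 4.09 and 0 RPKM in LLC, and no comparison of it passed the test. Mir17hg, which carries the miR-17 to miR-92a cluster, had 2.39 and 1.33 RPKM in TAM, 0.452 and 0.450 RPKM in Fibroblast, 2.46 and 3.38 RPKM in LLC, and 2.39 and 1.63 RPKM in Total tumor. Fibroblast was lower than LLC by -1.42 (SE 0.30, adjusted p = 0.00873), a call lost without Fibroblast 1, without Fibroblast 2 and without LLC 2 (adjusted p up to 0.0598).

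At the minimum itself the loci just inside were Mir322, Snora74a and Mir425, whose second-highest libraries had 1.02, 1.07 and 1.14 RPKM. Just outside were Mir143hg, Snord67 and Snord8, with 0.994, 0.990 and 0.979 RPKM. Mir322 had 1.02 and 4.95 RPKM in LLC from 1 and 2 reads and 0 in every other library, so it is among the loci through LLC alone. Mir143hg, the host of the smooth-muscle microRNA miR-143, had 0 and 0.165 RPKM in TAM, 0.994 and 2.02 RPKM in Fibroblast, and 0.426 and 0.344 RPKM in LLC, and was outside the tested genes.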

How the data were processed

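RPKM values for 31645 RefSeq transcripts in 8 libraries were deposited by the authors; per the labels, 200 ng of RNA was primed with oligo-dT and read at 50 bp on a HiSeq1500. The submitters' processing notes name STAR, HOMER and mm9, without versions. The sources used here do not give the strand setting, the filters or the treatment of multiply placed reads.

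From the deposited RPKM values, the transcript with the highest mean was kept for each symbol (23952 symbols), after 3 unnamed transcripts were dropped. Genes with 1 RPKM in at least 2 libraries (13311) were tested on log2(RPKM + 1), so folds of low genes are understated, with limma 3.58.1 (R 4.3.3). A single fit covered all 8 libraries and 4 groups with a variance trend, a median prior of 3.62 and 4 residual degrees of freedom. A gene was called where its p-value, adjusted over all genes by Benjamini-Hochberg, was under 0.05. The procedure was tested on simulated data.

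Reads were recovered from RPKM, RefSeq span shortened by a single base, and depth. The depth was fitted on low values of short loci of this kind. That length was chosen since the full span gave fewer whole numbers (83.4 to 93.2% of short loci, by library). The share of whole numbers is thus partly set by the fit. Of 1303 non-zero values of the loci, 99.1% came within 0.05 of a whole number, and these reads describe precision only; no count model was run. They cover counting error only. Positions and hosts come from the GENCODE M21 basic annotation and sequences from RefSeq, both on GRCm38, matched by symbol or accession. The table is on mm9, so no coordinates are printed.

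The loci and gene lists were chosen with earlier results of these data known. Loci are named where called in a comparison, among the 20 highest means, or on the textbook list, with their hosts; loci at the minimum are named for that position, and the loci of the shared seed for their seed. Alternatives covered pseudocounts, filters, rescaling, length correction, variance trend, a fit of only 2 groups, a replicate term, deeper loci only and each library left out. Python 3.11.15, pandas 2.3.3, numpy 2.4.6, scipy 1.17.1 and matplotlib 3.10.9 were used.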

Additional observations from a re-analysis of the deposited data

How the results depend on the processing

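Of 243 calls of a locus over the 6 comparisons, 93 held under every alternative that could be run, 150 were lost under at least 1 and 0 changed sign. With each library left out in turn, the loci called higher and lower ranged from 14 to 31 and 11 to 22 for TAM minus Fibroblast, 15 to 28 and 27 to 54 for TAM minus LLC, and 6 to 19 and 15 to 59 for Fibroblast minus LLC. They ranged from 13 to 33 and 17 to 44 for TAM minus Total tumor, 0 to 36 and 0 to 10 for LLC minus Total tumor, and 8 to 32 and 12 to 46 for Fibroblast minus Total tumor. The highest counts came without Total tumor 1 (36 higher for LLC, 32 for Fibroblast, 33 for TAM, each against Total tumor) and without Total tumor 2 (54 lower for TAM minus LLC, 59 for Fibroblast minus LLC, and 44 for TAM and 46 for Fibroblast against Total tumor). In a fit of only the 2 groups compared, 24 loci were lower for TAM minus Fibroblast, 60 were lower for Fibroblast minus LLC, 12 were higher and 18 lower for TAM minus Total tumor, and 0 were higher and 0 lower for LLC minus Total tumor, where limma's fit of all libraries gave 31 loci at an unadjusted p under 0.05. Among the 57 loci with 10 or more reads in at least 2 libraries, the higher and lower calls were 6 and 5 for TAM minus Fibroblast, 5 and 6 for TAM minus LLC, 0 and 11 for Fibroblast minus LLC, 3 and 7 for TAM minus Total tumor, 0 and 0 for LLC minus Total tumor, and 2 and 15 for Fibroblast minus Total tumor; fewer loci are counted there, and at an unadjusted p under 0.05 the counts of 0 became 1 for Fibroblast minus LLC and 1 and 2 for LLC minus Total tumor. For Fibroblast minus LLC, lower calls numbered 22 with the filter at 5 RPKM and 22 with the length correction. For Fibroblast minus Total tumor they numbered 17 with upper-quartile rescaling and 20 with quantile normalization. For LLC minus Total tumor the higher calls numbered 2 with the filter at 5 RPKM, 3 with the length correction, 3 (and 0 lower) with a pseudocount of 5, and 2 (and 0 lower) without a filter. The causes of the differences between settings were not tested. Replicate numbers are shared between groups in the labels, and number 1 is the deeper library in every group. The correlation of same-numbered samples' deviations over all genes was weakly positive between sorted populations (0.16, 0.27 and 0.21) and negative with Total tumor (-0.36, -0.18 and -0.23). With 2 numbers a group and no label of a shared animal or batch, the samples were not taken as paired. With a replicate block, 20 loci were higher and 15 lower for TAM minus Fibroblast, 23 and 36 for TAM minus LLC, 15 and 37 for Fibroblast minus LLC, 21 and 26 for TAM minus Total tumor, 5 and 2 for LLC minus Total tumor, and 13 and 29 for Fibroblast minus Total tumor, and 222 of the 243 calls held.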
